A study of Mus musculus with 12 samples.

Results

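The 9 genes described here encode proteins that copy and transcribe mitochondrial DNA, transcription factors that act on nuclear genes for mitochondrial proteins, and the dynamin-related proteins that fuse and divide mitochondria. They were taken by symbol from a table of read counts per gene in mouse brown adipose tissue, a fat depot that makes heat. All 9 were among the 24197 genes of the table, and all 9 passed the filter on low counts that left 15265 genes for testing. In single libraries their counts ran from 321 for Nrf1 to 25959 for Mfn2.

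The 12 libraries fall into 4 groups of 3, from mice aged 8 to 10 weeks. Control animals were labelled Adipoq-Cre-; Ebf2 fl/fl, and mutant animals Adipoq-Cre+; Ebf2 fl/fl, so that both carried floxed alleles of Ebf2, a transcription factor gene of brown fat. Adipoq-Cre is driven by the adiponectin promoter, which is active in adipocytes, so other cells of the tissue keep the allele. Each genotype was kept at room temperature or for 1 week in the cold, labelled 4C. No label states that the 3 replicates of a group came from different mice, so the spread behind each p-value is that between these libraries and may be technical.

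Mitochondria hold their own circular genome, which the nuclear-encoded polymerase Polrmt transcribes with the packaging and initiation factor Tfam, and which the DNA polymerase Polg copies. Nuclear respiratory factor 1 (Nrf1) and the ETS-family protein Gabpa, the DNA-binding subunit of nuclear respiratory factor 2, act on many nuclear genes for respiratory chain subunits and for the mitochondrial transcription machinery. Mfn1 and Mfn2 join outer membranes, Opa1 joins inner membranes and shapes cristae, and Dnm1l (Drp1) constricts mitochondria for division. Brown adipocytes are packed with mitochondria, whose number and form are known to adapt to cold.

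Promoters of the 5 members that passed the test in any comparison are shown because 4 of them hold the letters of a binding motif for one of the transcription factors described here. Each is given from 100 bases before to 20 bases after the RefSeq start site on the gene's strand, with motif letters in capitals.
Tfam: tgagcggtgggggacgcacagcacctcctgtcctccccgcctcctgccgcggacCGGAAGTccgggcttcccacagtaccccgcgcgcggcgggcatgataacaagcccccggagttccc
Mfn1: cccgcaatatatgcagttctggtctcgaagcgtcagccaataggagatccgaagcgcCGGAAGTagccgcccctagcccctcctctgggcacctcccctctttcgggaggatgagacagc
Polrmt: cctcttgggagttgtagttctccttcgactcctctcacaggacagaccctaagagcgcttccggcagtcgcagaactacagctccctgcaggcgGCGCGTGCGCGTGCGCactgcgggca
Opa1: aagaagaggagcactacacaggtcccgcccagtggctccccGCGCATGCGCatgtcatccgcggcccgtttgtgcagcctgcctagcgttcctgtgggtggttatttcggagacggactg
Gabpa: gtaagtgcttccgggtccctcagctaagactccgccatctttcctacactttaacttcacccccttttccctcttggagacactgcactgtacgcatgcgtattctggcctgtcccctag

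On build GRCm38.p6 these stretches lie at chr10:71238025-71238144 (minus strand) for Tfam, chr3:32529382-32529501 (plus) for Mfn1, chr10:79746562-79746681 (minus) for Polrmt, chr16:29579234-29579353 (plus) for Opa1 and chr16:84835024-84835143 (plus) for Gabpa. The counts themselves were made on mm9, another build, so no coordinates of the counted genes are given. Both strands of each 300-base RefSeq promoter were searched for the NRF1 letters (GCGCA, any base, then GCGC) and for ACTTCCG, the ETS letters that Gabpa is known to recognise. Tfam, Mfn1 and Polg held the ETS letters on the minus strand (CGGAAGT, starting at -46, -43 and -37 from the start site). Polrmt held the NRF1 letters in 2 overlapping copies on the minus strand, from -6 and from 1. Opa1 held them at -59, where the letters read the same on both strands. The windows of Gabpa, Nrf1, Mfn2 and Dnm1l held neither. Of all 32851 promoters of this length, 4.6% held the NRF1 letters and 6.42% the ETS letters. A match is a description of the letters, not a site shown to be bound.

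Library totals ran from 25835650 to 37927038 counts. Levels are given in CPM, counts scaled to a common library total after TMM normalization. Ebf2, the targeted gene, averaged 49.8 CPM in mutants and 47.8 in controls at room temperature, so its level does not bear out the label there, and every direction for genotype rests on the labels. In the cold it was 25.8 CPM in libraries labelled mutant against 45.4 (edgeR adjusted p = 0.153). All 9 brown adipocyte markers were detected in every library, with a summed share between 1.47% and 2.77% of counts. Skeletal muscle transcripts (20 genes) took 3.06%, 2.21%, 2.17% and 1.01% of counts in room temperature control libraries 1 and 3, mutant room temperature library 3 and control cold library 3, and at most 0.688% in the other 8. Epithelial markers (5 genes) took 0.0248% in mutant cold library 3 and at most 0.00262% elsewhere. In that library, relative to the other two of its group, transcripts above 5000 bases had a median log2 difference of 0.28 and transcripts under 1500 bases one of -0.48, the widest such gap among the 12 libraries.

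Per kilobase of exon, Mfn2 stood above the other 8 genes in all 12 libraries, between 82.4 and 132 CPM per kilobase, and its range did not overlap that of Opa1, which came next with a median of 34.0 CPM per kilobase. Mfn1 and Gabpa had medians of 22.2 and 20.8, and Mfn1 was above Gabpa in only 6 of 12 libraries. Dnm1l (17.5) and Polrmt (15.5) followed with overlapping ranges. Polg and Tfam were close, at 9.47 and 9.34, with Polg the higher in 6 of 12 libraries. Nrf1 was lowest, at 2.56, below Tfam in every library without overlap. The highest library of Dnm1l was 1.27 times its lowest, that of Polg 1.31 times, Nrf1 1.42 times and Mfn2 1.60 times. Polrmt (2.23 times), Gabpa (2.04 times) and Tfam (2.01 times) varied most.

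**Figure D1:**
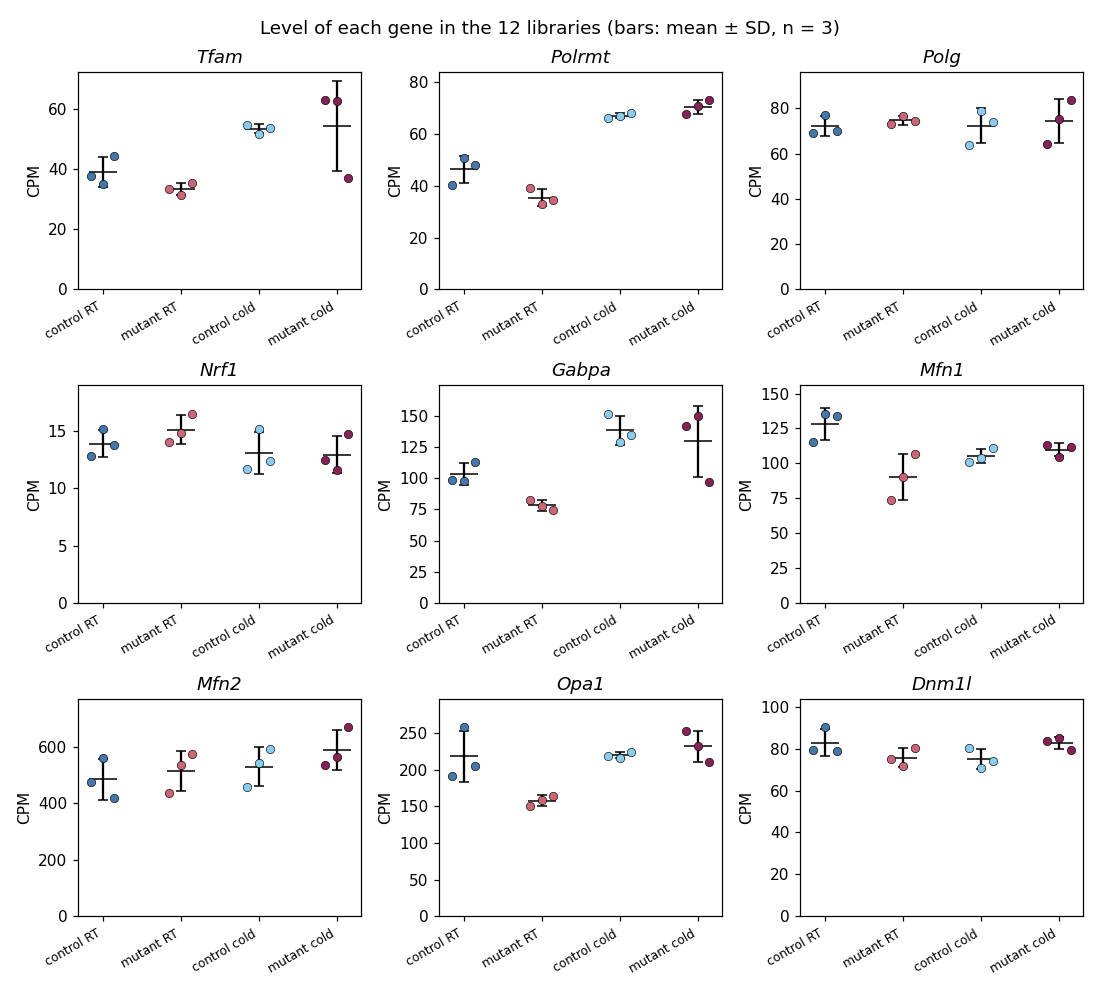
CPM (vertical axis, from 0) of each gene in the 12 libraries by group; points are libraries 1 to 3 from left to right, and bars are the mean ± SD (n = 3). Polrmt was between 66.1 and 73.0 CPM in all 6 cold libraries and at most 50.7 in all 6 at room temperature, while in mutant cold library 3 Tfam and Gabpa lay far below the other two libraries.

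Between the groups, the most members passed the test in mutants on cold exposure. There, 4 of 9 were called higher (Tfam, Polrmt, Gabpa and Opa1) and 0 lower, where 17.4% of all genes tested were called in either direction, 10.0% higher and 7.42% lower. In controls on cold exposure Polrmt was called higher and the other 8 were not called (background 6.62%, of which 4.31% higher and 2.31% lower). At room temperature Mfn1 was called lower in mutants and 8 were not called (background 6.24%, of which 3.92% higher and 2.32% lower). In the cold, 0 of 9 members were called between genotypes (background 1.12%), 0 at an unadjusted p under 0.05 (15.3% of all genes) and 0 in DESeq2. For the interaction, the test of whether the cold response differed by genotype, 0 of 9 were called in edgeR and 0 in DESeq2, and 3 had an unadjusted p under 0.05 (Polrmt, Mfn1 and Opa1), where 0.478% of all genes were called and 12.2% had such a p. The groups did not overlap for 4 of 9 members at room temperature (all lower in mutants), 0 between genotypes in the cold, 4 on cold exposure in controls (3 higher, 1 lower) and 4 in mutants (all higher). Over all genes the share without overlap was 24.8%, 24.8%, 33.3% and 32.6%. With a replicate block the interaction called 34 genes in place of 73, and 0 members. The 2 comparisons at room temperature and in mutants share the mutant room temperature libraries, and those at room temperature and in controls share the control ones. In bulk tissue, fewer cells of a type and less RNA per cell cannot be told apart.

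**Figure D2:**
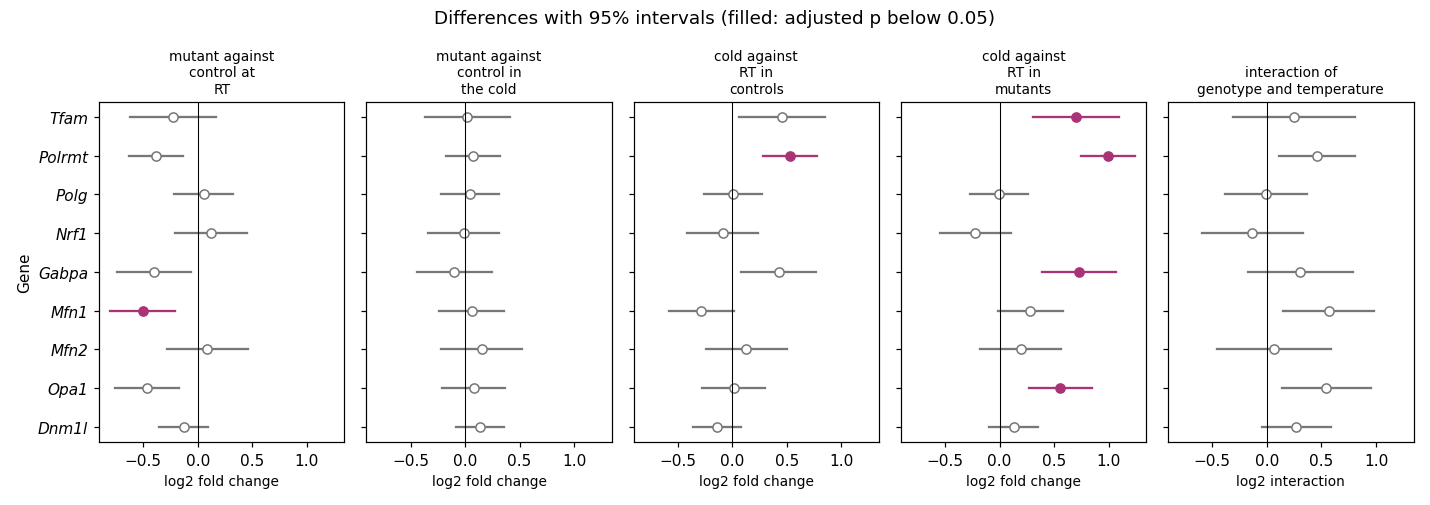
Log2 differences (horizontal axis) of the 9 genes in the 4 comparisons of 2 groups and the interaction, with 95% intervals from the edgeR fit; filled points have an adjusted p below 0.05. The filled points are Mfn1 at room temperature, Polrmt in controls, and Tfam, Polrmt, Gabpa and Opa1 in mutants.

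Among Tfam, Polrmt and Polg, the members that act on mitochondrial DNA, the polymerase gene Polrmt had the widest cold difference. In controls it was 40.4, 50.7 and 47.9 CPM at room temperature and 66.1, 66.9 and 68.0 CPM in the cold. In mutants it was 39.0, 32.8 and 34.6 CPM at room temperature and 67.7, 70.9 and 73.0 CPM in the cold. Every cold library was above every room temperature library. The log2 fold change on cold exposure was 0.99 ± 0.11 (SE; n = 3 against 3; adjusted p = 0.000252) in mutants and 0.53 ± 0.11 (adjusted p = 0.0190) in controls. The call in mutants held without any 1 library and without the 4 muscle-rich libraries, where the log2 fold change was 0.97. The call in controls was lost without control room temperature library 3 or any 1 control cold library (adjusted p from 0.0567 to 0.0871), and without the 4 muscle-rich libraries, which leaves 1 control at room temperature (0.319). The difference between the 2 responses was 0.46 ± 0.16 and was not called (adjusted p = 0.264). At room temperature the mutant values of Polrmt lay below all control values, at -0.39 ± 0.11 (adjusted p = 0.0703). This difference was called in DESeq2 (0.0213) and in 1 of the 12 fits that left out 1 library, that without control room temperature library 1 (0.0273).

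Tfam, which packages and helps transcribe the mitochondrial genome, was 37.6, 34.9 and 44.4 CPM in controls at room temperature and 54.7, 51.6 and 53.7 CPM in the cold. In mutants it was 33.3, 31.3 and 35.2 CPM at room temperature and 62.8, 62.7 and 36.9 CPM in the cold. Mutant cold library 3 was thus within the room temperature range of controls, while the other two were the highest of all 12. Tfam rose in mutants by 0.70 ± 0.18 on the log2 scale (SE; adjusted p = 0.0201). Without mutant cold library 3 the difference was 0.92 (adjusted p = 0.000373). The call was lost without any 1 other mutant library (adjusted p from 0.0526 to 0.0998), when only the groups compared were fitted (0.0815), and without the 4 muscle-rich libraries (0.110). In controls the difference was 0.45 ± 0.18 (adjusted p = 0.154), with no overlap between the groups. It was called without mutant cold library 3, which enters the shared estimate of spread (adjusted p = 0.0224).

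Polg, the polymerase that copies mitochondrial DNA, differed little in any comparison. Its group means were 72.0 ± 4.37 CPM in controls and 74.7 ± 1.97 in mutants at room temperature (SD, n = 3), and 72.2 ± 7.68 and 74.4 ± 9.67 in the cold. The 95% interval of its cold difference was -0.26 to 0.27 in controls and -0.27 to 0.26 in mutants. As a result the ratio of Polrmt to Polg per kilobase within a library was 0.89 to 1.12 in mutants and 1.22 to 1.43 in controls at room temperature, and 1.77 to 2.20 in all 6 cold libraries. The ratio is a description and was not tested.

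Of the nuclear respiratory factors, Gabpa and Nrf1 had different patterns. Gabpa was 98.6, 98.0 and 113 CPM in controls at room temperature and 152, 129 and 135 CPM in the cold. In mutants it was 82.5, 77.3 and 74.5 CPM at room temperature and 142, 150 and 96.5 CPM in the cold, again with library 3 apart. Gabpa rose in mutants by 0.73 ± 0.16 on the log2 scale (SE; adjusted p = 0.00811), and by 0.90 without mutant cold library 3 (adjusted p = 0.000333). That call held without any 1 library but not without the 4 muscle-rich ones (0.69, adjusted p = 0.0934). In controls the difference was 0.42 ± 0.16 (adjusted p = 0.126; 0.0253 without mutant cold library 3), and between genotypes at room temperature -0.40 ± 0.16 (adjusted p = 0.165; 0.0335 without that library). In neither of these did the groups overlap.

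Nrf1 was between 11.6 and 16.5 CPM in all 12 libraries. The group means of Nrf1 were 13.9 ± 1.17 CPM in controls and 15.1 ± 1.27 in mutants at room temperature (SD, n = 3), and 13.1 ± 1.84 and 12.9 ± 1.59 in the cold. It was not called in any comparison, and its largest difference was -0.22 ± 0.15 on the log2 scale (SE) on cold exposure in mutants (adjusted p = 0.349).

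Of the fusion genes, Mfn1 passed the test between genotypes. At room temperature it was 115, 136 and 134 CPM in controls and 73.8, 90.0 and 107 CPM in mutants. All mutant libraries were below all controls. The log2 fold change was -0.51 ± 0.14 (SE; adjusted p = 0.0482), close to the threshold of 0.05. The call was lost in 9 of the 12 fits that left out 1 library (adjusted p from 0.0635 to 0.175) and held without control library 1 or mutant library 3 at room temperature or mutant cold library 3. It was also lost with RLE size factors (0.0532), without a filter on low counts (0.0642) and when only the groups compared were fitted (0.138). Without the 4 muscle-rich libraries the difference was -0.72 with 1 control left (adjusted p = 0.137). In the cold Mfn1 was 101, 104 and 111 CPM in controls and 113, 104 and 111 CPM in mutants, so the groups overlapped (log2 fold change 0.06 ± 0.14). Its cold difference was -0.28 ± 0.14 in controls and 0.28 ± 0.14 in mutants, neither called, and the interaction of 0.57 ± 0.19 was not called either (adjusted p = 0.251).

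Opa1, the inner membrane fusion gene, rose on cold exposure in mutants. It was 150.2, 158 and 164 CPM in mutants at room temperature and 253, 232 and 211 CPM in the cold, with no overlap (log2 fold change 0.56 ± 0.13 SE, adjusted p = 0.0140). That call was lost in fits lacking mutant room temperature library 2, or else 1 of mutant cold libraries 1 and 2 (adjusted p from 0.0527 to 0.0822) and without the 4 muscle-rich libraries (0.0577). In controls it was 192, 258 and 204 CPM at room temperature and 218, 216 and 224 CPM in the cold, a log2 difference of 0.01 ± 0.13. At room temperature all mutant libraries were below all controls, at -0.47 ± 0.13 (adjusted p = 0.0624), which was called in DESeq2 (0.0101) and with a filter on mean CPM (0.0447). Of the 12 fits that left out 1 library, 2 called it, those without control room temperature library 1 (0.0389) or mutant cold library 3 (0.0347). The interaction was 0.55 ± 0.19 (adjusted p = 0.258).

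Mfn2, the most abundant of the 9, was not called in any comparison. Its group means were 485 ± 72.0 CPM in controls and 514 ± 70.8 in mutants at room temperature (SD, n = 3), and 529 ± 67.6 and 588 ± 71.0 in the cold. The lowest library had 418 CPM and the highest, mutant cold library 3, had 668. The 2 mitofusin genes therefore differed in ratio at room temperature: per kilobase, Mfn2 was 3.99, 4.00 and 3.03 times Mfn1 in controls and 5.70, 5.75 and 5.19 times in mutants. In the cold the ratio was 4.38 to 5.14 in controls and 4.56 to 5.80 in mutants, with overlap.

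Dnm1l, the fission gene, varied least, from 70.9 to 90.2 CPM over the 12 libraries. Its genotype difference was -0.13 ± 0.10 on the log2 scale at room temperature and 0.14 ± 0.10 in the cold (SE; adjusted p = 0.540 and 0.551). The ratio of Opa1 to Dnm1l per kilobase was 1.74 to 2.06 in room temperature controls, 1.45 to 1.59 in room temperature mutants and 1.92 to 2.20 in the cold. The room temperature mutants were thus the lowest 3 libraries in this ratio.

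**Figure D3:**
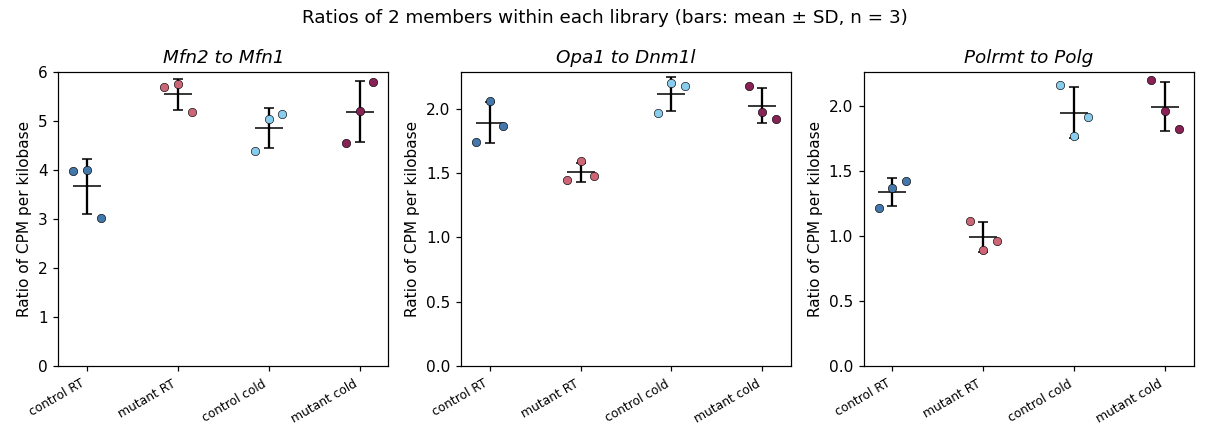
Ratios of CPM per kilobase between 2 members in each library (vertical axes, from 0) by group, with the mean ± SD (n = 3). At room temperature the mutant libraries are above the controls in Mfn2 to Mfn1 (5.19 to 5.75 against 3.03 to 4.00) and below them in Opa1 to Dnm1l and in Polrmt to Polg.

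The summed shares of some cell type marker lists did not overlap between the groups compared. Values are summed shares of counts, and unless stated no marker of the list was at 0. On cold exposure in mutants, endothelial markers (7 genes) went from 0.0583% to 0.0787% at room temperature to 0.0926% to 0.105% in the cold. Macrophage markers (8 genes) went from 0.0142% to 0.0229% down to 0.0118% to 0.0132%, and eye lens markers (7 genes) from 0.00525% to 0.00982% up to 0.0117% to 0.0156%. Of the 7 lens markers, 5 were called higher here (median log2 fold change 7.38), 5 in the interaction and 0 between genotypes in the cold. The crystallin gene Cryaa went from 0.255, 0.432 and 0.313 CPM to 66.0, 58.7 and 40.6. Cryab, not called, went from 68.3, 53.8 and 101 CPM to 27.7, 31.8 and 32.0. On cold exposure in controls, brown adipocyte markers (9 genes) went from 1.87% to 2.04% up to 2.39% to 2.69%. Their log2 fold changes were split, 5 above 0 and 4 below, with Ucp1 and Adrb3 called higher and Adipoq lower. Ucp1 alone was 2684, 5617 and 5059 CPM at room temperature and 12212, 11505 and 12090 CPM in the cold in these controls. There, fibroblast and preadipocyte markers (7 genes) went from 0.125% to 0.210% down to 0.0601% to 0.111%, lens markers from 0.0282% to 0.0662% down to 0.0141% to 0.0222%, and epithelial markers (5 genes) from 0.00165% to 0.00262% down to 0.000258% to 0.00119%. None of these pairs of ranges overlapped. The lens fall in controls was one of the summed share, and its 2 crystallin genes named above overlapped singly. Cold controls had 69.2, 51.3 and 70.0 CPM of Cryaa, against 57.5, 269 and 70.0 in room temperature controls. Only library 2 of the latter lay above the cold range of Cryaa. Cold controls had 41.8, 31.0 and 87.0 CPM of Cryab, against 265, 81.3 and 116 in room temperature controls. Of single genes, 32.6% in mutants and 33.3% in controls had no overlap on cold exposure. In edgeR 3 of 7 endothelial and 0 of 8 macrophage markers were called on cold exposure in mutants (17.4% of all genes). In controls 0 of 7 fibroblast and preadipocyte, 0 of 5 epithelial and 0 of 7 lens markers were called (6.62%).

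Mutant cold library 3, in which Tfam, Gabpa and the cytochrome c oxidase genes were low, also stood apart in 2 further lists. Its fibroblast and preadipocyte share was 0.222%, the highest of the 12 libraries, against 0.0561% and 0.0421% in the other two of its group and 0.139% to 0.162% in mutants at room temperature. Its brown adipocyte share was 1.72%, against 2.77% and 2.67%. These markers did not all move one way in it. Ucp1 (5867 CPM against 10971 and 11675), Fabp4, Cidea, Pparg and Adrb3 were below both other libraries of the group. Dio2 (450 CPM against 354 and 190), Adipoq and Prdm16 were above both, and Plin1 lay between them.

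Between genotypes at room temperature, the summed shares of lens and epithelial markers did not overlap. Epithelial markers took 0.000695% to 0.00121% of counts in mutants, below the control range given above. Of the lens markers, at most 2 of 7 were at 0 in a mutant library, and most of the mutant share came from Cryab, at 68.3, 53.8 and 101 CPM. The lens crystallin gene Cryaa was 57.5, 269 and 70.0 CPM in room temperature controls and 0.255, 0.432 and 0.313 CPM in room temperature mutants. Cryba1 was 33.6, 140.4 and 38.9 CPM against 0.102, 0.144 and 0.125 CPM, and the lens membrane protein gene Mip was at 0 in all 3 mutant libraries and at 3.76, 19.2 and 4.11 CPM in controls. In edgeR 6 of the 7 lens markers were called lower in these mutants, and 0 of the 5 epithelial markers were called (6.24% of all genes). Brown adipocyte shares overlapped, with Plin1 and Adrb3 called higher in mutants, Ucp1 lower and 6 of the 9 not called. Ucp1 was 2020, 718 and 1186 CPM in room temperature mutants, below all 3 control values given above. Muscle markers overlapped between genotypes at room temperature, at 0.00999% to 3.06% in controls and 0.00703% to 2.17% in mutants, where at most 5 of the 20 were at 0. The part of these cells in the members' differences was not tested.

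The wider gene lists of these processes are given by their counts, to be read against the shares of all genes called above (17.4% on cold exposure in mutants, 6.62% in controls, 6.24% at room temperature). Counts at an unadjusted p under 0.05 are to be read against 20.1% of all genes between genotypes at room temperature and 15.3% in the cold. On cold exposure that share was 23.6% in controls and 30.9% in mutants. In the fits without mutant cold library 3 the shares of genes called were 23.4% in mutants (2015 of 15506 genes higher, 10.4% lower), 11.6% (7.27% higher) in controls and 9.75% (4.11% lower) at room temperature. In the fits without the 4 muscle-rich libraries they were 7.64%, 0.0816% and 0.809%. Among 26 other genes of mitochondrial DNA maintenance and transcription, 7 were called higher and 1 lower on cold exposure in mutants, with a median log2 fold change of 0.39 against -0.01 over all genes. The transcription termination family gene Mterf2 rose by 0.98 ± 0.24 on the log2 scale (SE; adjusted p = 0.0164) and the elongation factor gene Tefm by 0.87 ± 0.27 (adjusted p = 0.0442). Tk2, the mitochondrial thymidine kinase, fell from 30.2 ± 2.35 to 18.6 ± 2.18 CPM (SD, n = 3). In controls 2 rose, Mterf4 by 0.70 ± 0.18 and the matrix protease gene Lonp1 by 0.60 ± 0.15 (SE), and 24 were not called (median 0.29). At room temperature 2 were lower in mutants and 24 not called (median -0.15). These were Peo1, the mitochondrial DNA helicase Twinkle, at 23.1 ± 0.881 CPM against 35.4 ± 3.20 (SD, n = 3), and the mitochondrial RNA-binding protein gene Lrpprc at 105 ± 5.22 against 164 ± 38.4 CPM. In the cold 0 of 26 were called between genotypes, 0 at an unadjusted p under 0.05 and 0 in DESeq2. Without mutant cold library 3, 13 rose and 1 fell in mutants, and 4 were lower and 1 higher at room temperature. Without the 4 muscle-rich libraries the counts were 2 higher and 1 lower in mutants, 0 in controls and 0 at room temperature.

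Among 21 other nuclear regulators of mitochondrial genes, 4 were called lower and 0 higher in mutants at room temperature (median -0.19). Perm1, a regulator best known in muscle that works with estrogen-related receptors, was 20.1 ± 7.74 CPM in mutants and 56.6 ± 17.8 in controls (SD, n = 3; adjusted p = 0.0189). The orphan nuclear receptor gene Esrrg was 13.5 ± 3.23 against 28.1 ± 4.93 CPM (adjusted p = 0.00490). Perm1 was 67.4 and 66.3 CPM in the 2 muscle-rich controls and 36.0 in the other, and the part of muscle RNA in its difference was not tested. Esrra and Tfeb were the other two. On cold exposure in mutants 7 rose and 1 fell (median 0.14). Perm1 rose to 102 ± 26.4 CPM, and Esrrb, another receptor of the Esrra family, from 0.578 ± 0.531 to 6.05 ± 0.547 CPM. Pprc1, a relative of the coactivator PGC-1 alpha, fell by 0.63 ± 0.15 on the log2 scale (SE; adjusted p = 0.0148). In controls 0 of 21 were called on cold exposure in edgeR, with 7 at an unadjusted p under 0.05 and 5 called in DESeq2. Between genotypes in the cold 0 were called, 2 at an unadjusted p under 0.05 and 0 in DESeq2. Without the 4 muscle-rich libraries 6 rose and 0 fell in mutants, and 1 (Esrrg) was lower at room temperature, where the median was -0.34. Without mutant cold library 3, 7 rose and 1 fell in mutants, 5 were lower at room temperature, and 2 rose in controls (Ppargc1b and Esrra). In that fit 1 interaction was called (Esrra), where 0.587% of all genes were.

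The 10 nuclear-encoded cytochrome c oxidase subunits, described as targets of both Nrf1 and Gabpa, had 0 members called in any comparison in edgeR. Even so, all 10 lay on one side of 0 in each comparison of 2 groups, and 9 above and 1 below in the interaction. Their median log2 fold change was -0.73 between genotypes at room temperature, -0.46 in the cold, 0.43 on cold exposure in controls and 0.61 in mutants. The numbers at an unadjusted p under 0.05 were 2, 0, 0 and 3, where 20.1%, 15.3%, 23.6% and 30.9% of all genes had such a p. DESeq2 called 0, 0, 0 and 2. All 10 transcripts were shorter than 1500 bases, and over all 2113 tested transcripts of that class the medians were -0.12, -0.20, 0.14 and 0.04 in the same comparisons. Over transcripts above 5000 bases they were -0.03, 0.13, -0.19 and -0.06. The part of transcript length in this list's values was not tested. Cox4i1 was 2334 and 2543 CPM in mutant cold libraries 1 and 2 and 1015 in library 3, the library in which Tfam and Gabpa were also low. Some of the counts of 0 depended on that library: without it, 8 of 10 were called higher on cold exposure in mutants (median 0.98), where 2015 of all 15506 genes were. In that fit 1 was higher in controls (Cox4i1, 7.27% of all genes) and 6 were lower in mutants at room temperature (4.11% of all genes). Between genotypes in the cold (median -0.10) and in the interaction, 0 of 10 were still called. Without the 4 muscle-rich libraries 0 were called in each, and the median at room temperature was -0.30.

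Among 27 other genes of fusion, fission and inner membrane shape, 11 were called higher and 1 lower on cold exposure in mutants (median 0.24). The mitochondrial phospholipase gene Pld6 was 2.21 ± 0.737 CPM at room temperature and 9.23 ± 2.001 in the cold (SD, n = 3). The prohibitin gene Phb rose from 205 ± 8.20 to 454 ± 57.0 CPM, while the cristae subunit gene Chchd6 fell from 49.3 ± 3.52 to 37.5 ± 4.06 CPM. In controls 3 rose and 24 were not called (median 0.14), with Phb at 0.51 ± 0.14 and the outer membrane ubiquitin ligase gene March5 at 0.48 ± 0.12 on the log2 scale (SE). At room temperature 2 were lower in mutants and 25 not called (median -0.13). Pld6 was lower by a log2 fold change of -1.61 ± 0.30, and Mief2, which recruits Dnm1l to the outer membrane, was 49.6 ± 4.16 against 82.7 ± 6.71 CPM (SD, n = 3; adjusted p = 0.00262). In the cold 0 of 27 were called between genotypes, 2 at an unadjusted p under 0.05 and 0 in DESeq2. Without mutant cold library 3, 12 rose and 0 fell in mutants, 6 rose in controls and 6 were lower at room temperature. Without the 4 muscle-rich libraries 3 rose in mutants (Pld6, Phb and Slc25a46), with 0 called in controls and 0 at room temperature.

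Mitochondrial protein import and folding genes (24) had 9 called higher and 0 lower on cold exposure in mutants (median 0.61), including Clpx, a matrix unfoldase, from 98.8 ± 12.9 to 209 ± 37.5 CPM (SD, n = 3), and Tomm5, a subunit of the outer membrane pore, from 46.7 ± 12.1 to 95.4 ± 42.4 CPM. In controls 1 rose, the pore gene Tomm40 by 0.61 ± 0.13 (SE), and 23 were not called (median 0.37). Between genotypes 0 were called at either temperature in edgeR (medians -0.30 and 0.01), with 7 and 1 at an unadjusted p under 0.05 and 1 and 0 called in DESeq2. Without mutant cold library 3, 18 of the 24 rose in mutants (2015 of all 15506 genes), 6 in controls (7.27% of all genes), and 4 were lower in mutants at room temperature (4.11%). Leaving out the 4 muscle-rich libraries, 2 rose in mutants (Tomm40 and Clpx), with 0 called in the other comparisons.

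Among 17 mitophagy genes, which mark mitochondria for removal, 3 were called higher and 1 lower on cold exposure in mutants (median 0.08), a count near the share of all genes called there (10.0% higher and 7.42% lower). Gabarapl1, an autophagosome protein gene, rose from 212 ± 5.22 to 360 ± 53.5 CPM (SD, n = 3), Ulk1, the kinase that starts autophagy, by 0.61 ± 0.15 on the log2 scale (SE), and Park2, which encodes parkin, fell from 10.6 ± 1.69 to 5.91 ± 1.20 CPM. The mitophagy receptor gene Optn was the only one of the 17 called at room temperature, at 138 ± 6.72 CPM in mutants and 102 ± 9.10 in controls (SD, n = 3; adjusted p = 0.0411), and the only one called on cold exposure in controls (143 ± 9.25 CPM). Between genotypes in the cold 0 of 17 were called in edgeR, 3 at an unadjusted p under 0.05 and 3 in DESeq2. Without mutant cold library 3 the counts were 3 higher and 2 lower in mutants and 2 higher in controls and at room temperature. With the 4 muscle-rich libraries left out, 1 gene of this list was called, Park2 in mutants (lower). For the interaction 0 genes of the 6 lists were called in edgeR with all 12 libraries. In the order in which the lists are given here, 3, 4, 0, 4, 3 and 0 genes had an unadjusted p under 0.05 (12.2% of all genes). DESeq2 called 1, 3, 0, 3, 1 and 0 interactions, and 452 over all genes.

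**Figure D4:**
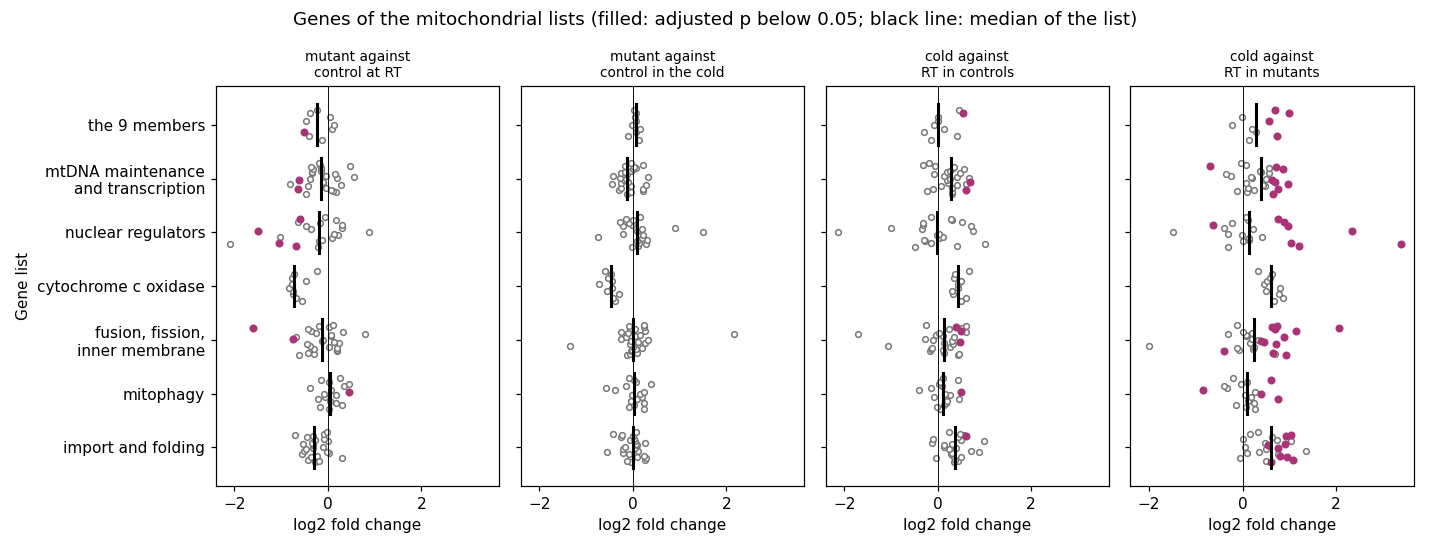
Log2 fold change (horizontal axis) of each gene of the 9 members and the 6 wider lists in the 4 comparisons of 2 groups; filled points have an adjusted p below 0.05 and black lines are list medians. The called genes are most numerous on cold exposure in mutants, where import and folding genes had a median of 0.61, and 0 filled points are seen between genotypes in the cold.

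For the 3 members whose log2 CPM had an SD of at least 0.3 over the 12 libraries, the genes with the most similar pattern were sought among 10034 genes with a mean of at least 5 CPM. Likeness was the root mean square difference between log2 CPM values centred on each gene's mean. Tfam was closest to Stoml2 (0.099) and Mmachc (0.101), against a median of 0.44 over all genes compared. Polrmt was closest to Tsen54 (0.099) and Pigo (0.106), with a median of 0.50. Gabpa was closest to Glrx5 (0.083) and Mrpl12 (0.093), with a median of 0.45. Between the members themselves, Tfam and Gabpa were the most alike pair (0.110), and Nrf1 and Polrmt the least (0.52).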

How the data were processed

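RNA isolated using TRIzol and spin columns was sequenced from NEB Next Ultra libraries, per the labels' protocols. The authors deposited raw read counts per gene symbol, made with STAR and featureCounts on mm9 per the submitters' processing notes; versions, annotation, strand and multi-mapping settings were not given in the sources used here. Of values from 1 to 10, 77.7% were even, and of the members' counts 50.9%; the reason was not tested.

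Counts were tested in edgeR 4.0.16 (R 4.3.3): filterByExpr (minimum count 10, total 15), TMM, robust quasi-likelihood F-test, 1 coefficient per group over all 12 libraries, two-sided, Benjamini-Hochberg over 15265 genes, called below 0.05. The script was tested on simulated data. SEs are those implied by the F statistic. Exon lengths are unions from GENCODE M21 (GRCm38), matched for 95.8% of tested genes. No replicates were copies of 1 library (chi-square per degree of freedom 40.6 to 249). The members and lists were chosen with earlier results of these data known. The rule named the 9 members, Ebf2 and, per list and comparison, up to 2 called genes per direction with the largest change and mean CPM of at least 1. The others named (Esrra, Tfeb, Cox4i1, Ppargc1b, Slc25a46 and single cell type markers) were chosen after their values were seen. Older and newer symbols of 1 gene counted once.

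Same-numbered libraries were checked for pairing by correlating deviations from group means. On log2 CPM with prior count 2, each of the 3 values exceeded 0.1 between genotypes at room temperature (0.149, 0.733, 0.494) and across temperature in controls (0.134, 0.657, 0.471) but in neither other comparison. With log2 values of CPM plus 1, this held across temperature in mutants alone (0.264, 0.186, 0.62). Pairing is thus unsettled, and the block is an alternative. Others were RLE size factors, DESeq2 1.42.0, other filters, only the groups compared and leaving out each library. The fit without the 4 muscle-rich libraries, and the wider lists' counts without them and without mutant cold library 3, were added after the data were seen. Overlapping and antisense genes cannot be separated.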

Additional observations from a re-analysis of the deposited data

How the results depend on the processing

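Of 855 member values over 45 results and 19 alternatives, 816 kept their side of the threshold, 30 lost a call, 9 gained one and 0 called values reversed. Most of the 45 results were not called in the edgeR fit of all 12 libraries, so most of the 855 values had no call to lose. At room temperature the members called between genotypes were 0 with RLE size factors, 0 without a count filter, 2 with the mean CPM filter, 3 in DESeq2, 0 with only the groups compared and 0 without the 4 muscle-rich libraries, against 1; genes called were 1699 in DESeq2, 552 with only the groups compared and 129 without the muscle-rich libraries, against 952. In the cold, genes called between genotypes were 745, 102 and 18 under the same 3 alternatives, against 171. On cold exposure in controls, DESeq2 called 2018 genes against 1010, and without the muscle-rich libraries 13 genes and 0 members were called. In mutants, 1633 genes were called with only the groups compared and 1218 genes and 1 member without the muscle-rich libraries, against 2663 and 4. The interaction called 452 genes in DESeq2, 34 with the replicate block and 26 without the muscle-rich libraries, against 73. The causes were not tested; the last alternative also has fewer samples.

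Leaving out 1 library at a time, genes and members called ranged from 395 to 1512 and 0 to 3 between genotypes at room temperature, from 28 to 203 and 0 to 0 in the cold, from 313 to 1795 and 0 to 3 on cold exposure in controls, from 1466 to 3630 and 2 to 4 in mutants, and from 13 to 204 and 0 to 0 for the interaction. The highest gene counts between genotypes at room temperature and on cold exposure in controls and in mutants came without mutant cold library 3. With the replicate block the counts were 873, 125, 1014 and 2671 genes and 1, 0, 1 and 4 members in the 4 comparisons of 2 groups, so the block changed no member's call. Member counts were at least 321 in every library, and the part of counting error in the spread between 3 libraries was not tested.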
